A study of Mus musculus with 4 samples.

Results

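The genes described here are 10 genes that astrocytes are known for, namely Gfap, Vim, Apoe, Clu, Glul, Slc1a2, Slc1a3, Aqp4, S100b and Gja1. They were taken as every probe set whose only gene symbol in the platform annotation is one of these names. On these arrays a transcript is read by a probe set, a group of short oligonucleotides whose signals are combined into 1 value. The rule found 15 probe sets for 9 of the 10 genes, out of 12422 probe sets that are not manufacturer's controls. Of these genes, 6 had 2 probe sets and 3 had 1, and Slc1a3 was not analysed here.

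RNA of the left hippocampus was measured on 4 Affymetrix arrays, each described as holding the RNA of a male mouse aged 12 months. The control group was nontransgenic C57B6/SJL mice, with 2 arrays, and the other group was Tg2576 mice, called APPSw, also with 2 arrays. Tg2576 mice overexpress amyloid precursor protein with the Swedish mutation from a hamster prion protein gene vector, and they deposit amyloid in the brain with age. Nothing in the labels says that the animals were littermates, so a difference of litter between the groups cannot be told apart from the transgene. The spread between arrays may be partly technical, and the number of arrays limits the precision of every value. In whole hippocampus, fewer cells of a type and less RNA per cell cannot be told apart.

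Astrocytes are glial cells that clear glutamate and potassium from around synapses, carry water and lipids, and join into networks through gap junctions. Around amyloid plaques and after injury they become reactive, which is usually recognised by more of the intermediate filament protein GFAP, often with vimentin. The members cover the filaments (Gfap, Vim), lipid carriers and chaperones (Apoe, Clu), glutamate uptake and glutamine synthesis (Slc1a2, Slc1a3, Glul), water and cell coupling (Aqp4, Gja1) and a calcium-binding protein (S100b). Several are shared with other cells. Vim is also made by endothelial, ependymal and meningeal cells, Apoe and Clu by choroid plexus among others, Apoe by microglia, Clu by neurons, and Glul and S100b by some oligodendrocytes.

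The upstream sequences of 3 members are shown, chosen by the array values given below. Gfap and Vim are the filament pair whose estimates lay on opposite sides of 0, and Gja1 has the member probe set with the smallest limma p. Each is the 250 bases before the annotated start, 5′ to 3′ on the gene's own strand, from RefSeq with build GRCm38.p6. They lie at chr11:102897201-102897450 (minus strand) for Gfap, chr2:13574061-13574310 (plus strand) for Vim and chr10:56377050-56377299 (plus strand) for Gja1. Capitals mark matches on either strand to the TATA box TATAAA, the CCAAT box CCAAT, the GC box GGGCGG, the AP-1 motif TGANTCA and the STAT motif TTCNNNGAA.
Gfap: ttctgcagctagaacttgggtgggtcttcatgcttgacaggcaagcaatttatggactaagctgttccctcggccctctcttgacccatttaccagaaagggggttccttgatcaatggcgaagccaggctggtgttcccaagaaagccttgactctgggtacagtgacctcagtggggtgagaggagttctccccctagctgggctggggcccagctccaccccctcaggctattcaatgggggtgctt
Vim: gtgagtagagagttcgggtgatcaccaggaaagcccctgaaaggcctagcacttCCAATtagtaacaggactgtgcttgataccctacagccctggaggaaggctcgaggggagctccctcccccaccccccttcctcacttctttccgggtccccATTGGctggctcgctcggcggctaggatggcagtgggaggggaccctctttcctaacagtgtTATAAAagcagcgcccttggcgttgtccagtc
Gja1: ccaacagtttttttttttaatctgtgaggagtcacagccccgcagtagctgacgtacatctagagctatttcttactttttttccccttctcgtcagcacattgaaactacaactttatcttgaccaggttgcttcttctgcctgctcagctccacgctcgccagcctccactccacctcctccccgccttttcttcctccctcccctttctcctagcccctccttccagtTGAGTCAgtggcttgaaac

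The Vim sequence held a TATA box starting 32 bases before the annotated start, and 2 CCAAT boxes starting 196 and 94 bases before it. The Gja1 sequence held 1 AP-1 match, 19 bases before the start, and no other motif searched. None of the 5 motifs was found in the 250 bases before the Gfap start. Of 32851 such windows in the RefSeq table, 12.4% held the TATA box, 33.8% the CCAAT box, 32.7% the GC box, 6.75% the AP-1 motif and 7.02% the STAT motif. These matches describe letters only. The arrays did not measure binding of any factor.

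The water channel gene Aqp4, the glutamine synthetase gene Glul and the filament gene Vim read higher on both APPSw arrays than on both controls, and the glutamate transporter gene Slc1a2 read lower. Gfap and the connexin gene Gja1 were lower by their dimmer probe sets, while their brighter ones overlapped the controls. Apoe also read lower on both APPSw arrays by its tested probe set, at 0.906-fold of control, while Clu and S100b overlapped the controls. The S100b estimate of 0.793-fold was similar in size to the 1.25-fold of the second Glul probe set. None of these differences passed the test. Values are MAS 5.0 signals on a linear scale, brought by the authors to a common target of 2500. Over 7453 probe sets bright enough to be tested, the limma test at an adjusted p of 0.05 called 0 probe sets (percent called 0), while 600 had an unadjusted p under 0.05 (8.05%). Of the 15 member probe sets, 14 passed the brightness filter and 0 of these 14 were called in either direction. An unadjusted p under 0.05 was found for 2 of the 14, both lower in APPSw, beside 3.33% lower and 4.72% higher over all tested probe sets. With 2 arrays in each group, the smallest two-sided p that an exact permutation test allows is 0.33. Member log2 differences, APPSw minus control, therefore stand as estimates with wide intervals, and no member is said to have changed.

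The groups did not overlap for 9 of the 14 member probe sets, with 5 higher and 4 lower in both APPSw arrays. Over all 7453 tested probe sets the share without overlap was 41.2%, with 22.2% above and 19% below. The 14 come from 9 genes, so they are not 14 separate observations. By the brightest probe set of each gene, 5 of 9 members did not overlap, against 41% of 5670 genes. The median member probe set differed by 0.36 in size on the log2 scale, against 0.19 over all tested probe sets. The directions were mixed. The signed median was -0.06 over the 14, with 7 above 0 and 7 below, beside 0.018 and 52.7% above 0 over all tested probe sets.

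**Figure D1:**
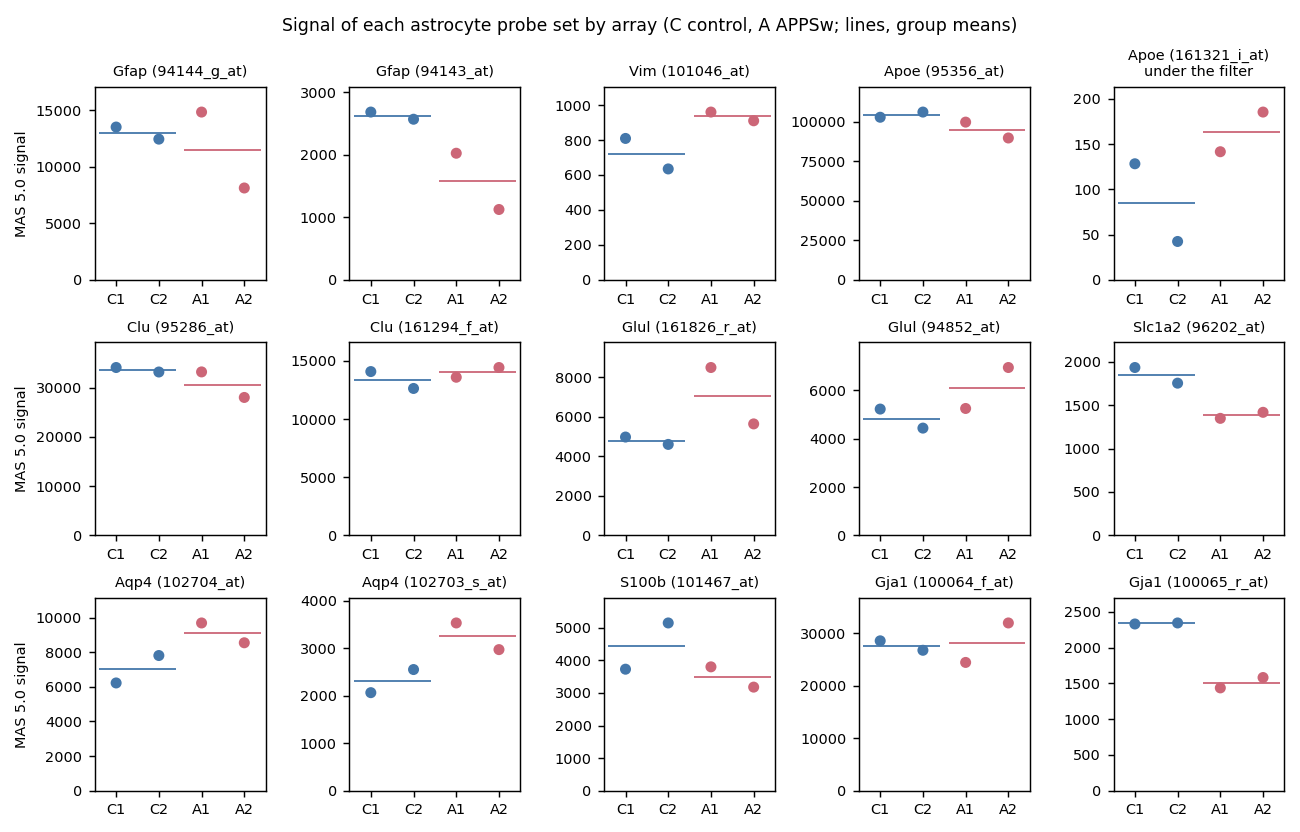
MAS 5.0 signal (linear axis from 0) of each of the 15 member probe sets on the 4 arrays, with control arrays in blue (C1, C2), APPSw arrays in red (A1, A2) and horizontal lines at the group means. Gfap is lowest on APPSw array 2 by both probe sets, while both Aqp4 and both Glul probe sets have the APPSw arrays above both controls.

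Gfap encodes glial fibrillary acidic protein, the main intermediate filament of mature astrocytes. Its brighter probe set (94144_g_at) had signals of 13522 and 12454 on the control arrays against 14848 and 8130 on APPSw arrays 1 and 2. The APPSw arrays lay on either side of the controls, so the groups overlapped. The group means were 12988 ± 755 (SD, n = 2) and 11489 ± 4751 (SD, n = 2), a log2 difference of -0.24 (SE 0.31, limma adjusted p = 0.832). Its 95% interval ran from 0.499-fold to 1.44-fold of control. The sign rested on APPSw array 2, without which the difference was 0.19.

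The dimmer Gfap probe set (94143_at), designed from the same transcript sequence, had signals of 2684 and 2569 on the control arrays against 2025 and 1126 on APPSw arrays 1 and 2. The 2 groups did not overlap on this probe set. Its log2 difference was -0.80 (SE 0.30, limma adjusted p = 0.610), with an interval from -1.54 to -0.05. It was -0.37 without APPSw array 2 and -1.22 without APPSw array 1. The 2 APPSw arrays differed by 1.83-fold on the brighter and 1.80-fold on the dimmer probe set. A wider gap between those arrays was found for 4.84% and 5.29% of tested probe sets. The controls differed by 1.09-fold and 1.04-fold. Neither Gfap probe set was above both controls on both APPSw arrays, and the intervals reach 1.44-fold and 0.965-fold of control at their upper ends.

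Vim, which encodes the filament protein vimentin, had signals of 809 and 635 on the control arrays against 960 and 910 on the APPSw arrays. The APPSw arrays stood close together, above both controls. Vim's log2 difference was 0.38 (SE 0.20, limma adjusted p = 0.620), with an interval from 0.930-fold to 1.83-fold of control. With an array left out it ranged from 0.21, without control 2, to 0.56, without control 1. Both Gfap probe sets had estimates below 0, the brighter one no longer so without APPSw array 2, and the difference between Gfap and Vim was not tested. Vim is expressed in choroid plexus and meningeal cells. Choroid plexus markers stood higher mainly in APPSw array 1, without which the Vim difference was 0.34. Meningeal and fibroblast markers stood higher in both APPSw arrays, with medians of 0.45 and 0.21 relative to the control mean. Leaving out APPSw array 1 does not remove that difference, and its part in the Vim value was not tested.

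Apoe encodes apolipoprotein E, the main lipid carrier that astrocytes secrete. Its bright probe set (95356_at) had signals of 102759 and 106037 on the control arrays against 99683 and 89658 on APPSw arrays 1 and 2. APPSw array 1 lay below the lower control by less than the gap between the controls, and array 2 by more. Their log2 difference from control was -0.14 (SE 0.17, limma adjusted p = 0.823), and its interval ran from 0.674-fold to 1.22-fold of control. The other Apoe probe set (161321_i_at) had signals of 128 and 42.4 on the control arrays against 142 and 185 on the APPSw arrays. It lay under the filter's signal of 565 and was not tested. The suffix _i marks a probe set with fewer usable probes than the design called for.

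Clu encodes clusterin, a secreted chaperone also known as apolipoprotein J. Its brighter probe set (95286_at) had signals of 34122 and 33209 on the control arrays against 33228 and 28032 on APPSw arrays 1 and 2. APPSw array 1 lay between the controls, so the groups overlapped. Clu's log2 difference on it was -0.14 (SE 0.18, limma adjusted p = 0.832), with an interval from 0.664-fold to 1.24-fold. It was -0.26 without APPSw array 1 and -0.019 without APPSw array 2. The second Clu probe set (161294_f_at) had 14084 and 12631 on the control arrays against 13595 and 14433 on the APPSw arrays. It also overlapped, with a log2 difference of 0.07 (SE 0.17, limma adjusted p = 0.920). After quantile normalization the APPSw arrays cleared the controls on both Clu probe sets, below them on the first and above them on the second. The suffix _f marks probes shared within a sequence family.

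Glul encodes glutamine synthetase, which turns glutamate taken up by astrocytes into glutamine. One of its probe sets (161826_r_at) had signals of 4972 and 4599 on the control arrays against 8490 and 5637 on APPSw arrays 1 and 2. The other (94852_at) had 5226 and 4438 on the control arrays against 5251 and 6947 on APPSw arrays 1 and 2. Both probe sets had both APPSw arrays above both controls. They disagreed on which APPSw array was the higher, and on the second probe set APPSw array 1 exceeded control 1 by a margin smaller than the gap between the controls. The log2 differences were 0.53 (SE 0.24, limma adjusted p = 0.612) and 0.33 (SE 0.22, limma adjusted p = 0.679). Their intervals ran from 0.953-fold to 2.20-fold and from 0.866-fold to 1.82-fold. With an array left out, the differences ranged from 0.24 to 0.83 and from 0.12 to 0.53. The suffix _r of the first marks a probe set for which some probe selection rules were dropped.

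Slc1a2 encodes the astrocytic glutamate transporter GLT-1, which performs most glutamate uptake in the forebrain. Its single probe set (96202_at) had signals of 1936 and 1756 on the control arrays against 1349 and 1419 on the APPSw arrays. The APPSw arrays were below both controls, and they lay closer to each other than to either control. Slc1a2 had a log2 difference of -0.41 (SE 0.17, limma adjusted p = 0.612), or 0.751-fold of control, with an interval from 0.559 to 1.01. It ranged from -0.48 to -0.34 with an array left out. Slc1a2 and Glul act in sequence on glutamate, and their estimates lay on opposite sides of 0. Among 9 other genes of glutamate uptake and the glutamine cycle, 2 were above 0 and 7 below, with 0 called by limma.

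Aqp4 encodes the water channel of astrocyte endfeet, the processes that wrap blood vessels. Its brighter probe set (102704_at) had signals of 6225 and 7809 on the control arrays against 9690 and 8545 on the APPSw arrays. The other (102703_s_at) had 2064 and 2551 on the control arrays against 3531 and 2970 on the APPSw arrays. On both probe sets the arrays stood in the same order, from control 1 through control 2 and APPSw array 2 to APPSw array 1. The log2 differences were 0.38 (SE 0.20, limma adjusted p = 0.620) and 0.50 (SE 0.20, limma adjusted p = 0.612). The factors were 1.31 and 1.41, with intervals from 0.927 to 1.84 and from 0.997 to 2.00. With an array left out they ranged from 0.22 to 0.55 and from 0.34 to 0.65. Aqp4 was the member whose 2 probe sets, both tested, gave the closest values, a log2 gap of 0.11 that 77.3% of 809 genes with 2 tested probe sets exceeded.

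Gja1 encodes connexin 43, the main gap junction protein of astrocytes. Its brighter probe set (100064_f_at) had signals of 28529 and 26732 on the control arrays against 24419 and 31930 on APPSw arrays 1 and 2. One APPSw array was below and the other above both controls. Their average gave a log2 difference of 0.016 (SE 0.20, limma adjusted p = 0.990), with an interval from 0.713-fold to 1.43-fold of control. The dimmer probe set (100065_r_at), from the same transcript sequence, had 2331 and 2345 on the control arrays against 1438 and 1583 on the APPSw arrays. Here the APPSw arrays were below both controls, which differed from each other by 1.01-fold. The log2 difference was -0.63 (SE 0.17, limma adjusted p = 0.599), or 0.645-fold with an interval from 0.481 to 0.865. It was the member with the smallest limma p, and it ranged from -0.70 to -0.56 with an array left out. Its suffix _r carries the same limit as for Glul, and the suffix _f of the brighter Gja1 probe set the same as for Clu.

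S100b encodes a calcium-binding protein of astrocytes that is also found in oligodendrocytes. Its probe set (101467_at) had signals of 3726 and 5143 on the control arrays against 3798 and 3177 on APPSw arrays 1 and 2. The controls differed by 1.38-fold, the widest gap between controls among the tested members, and the groups overlapped. The log2 difference was -0.33 (SE 0.23, limma adjusted p = 0.686), with an interval from 0.536-fold to 1.17-fold. By their median, oligodendrocyte markers stood lower in APPSw array 2, the array with the lowest S100b. Without that array the S100b difference was -0.20, and without control 2 it was -0.10.

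**Figure D2:**
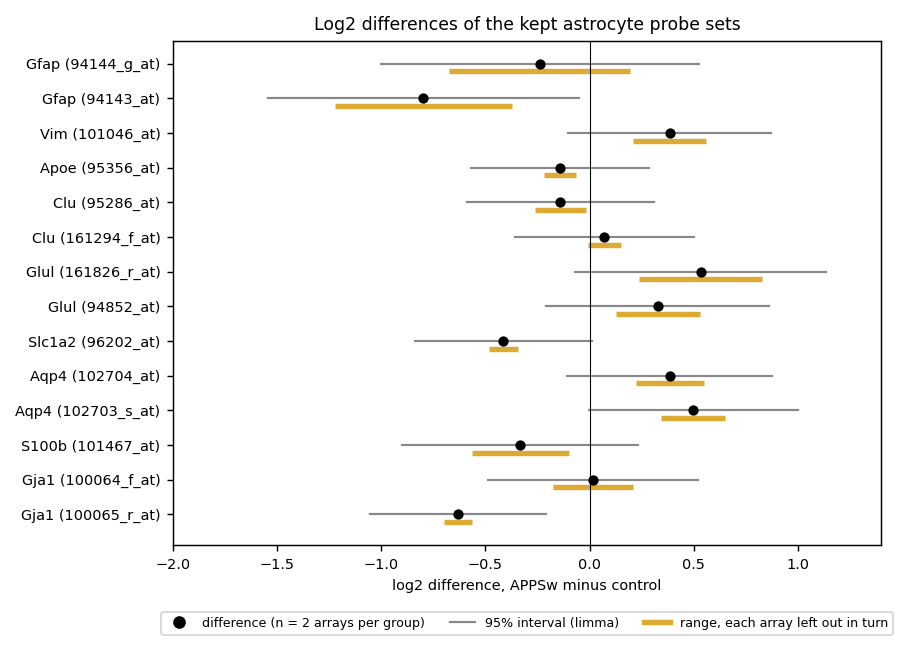
Log2 difference (APPSw minus control, horizontal axis) of the 14 tested member probe sets, as black points with 95% limma intervals in grey and, in yellow, the range of the difference when each array is left out in turn. The intervals of the dimmer Gfap probe set and of the dimmer Gja1 probe set lie below 0, and 0 probe sets pass the adjusted threshold.

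Probe sets of the same gene were compared within each array, where a changing ratio shows unequal change of the 2 readings. The brighter Gfap probe set was 5.04 and 4.85 times the dimmer in controls, and 7.33 and 7.22 times in APPSw mice. The Gja1 ratio was 12.2 and 11.4 on the control arrays against 17.0 and 20.2 on the APPSw arrays. For both genes the ratios did not overlap between the groups. The gap between the 2 log2 differences was 0.56 for Gfap and 0.65 for Gja1.

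Such gaps were not rare on these arrays. Of 809 genes with exactly 2 tested probe sets, 20.1% had a larger gap than Gfap and 16.1% a larger gap than Gja1, and the median gap was 0.26. The ratio did not overlap between the groups for 42.2% of them, and 43.8% had differences of opposite sign. The Aqp4 ratio was 3.02 and 3.06 on the control arrays against 2.74 and 2.88 on the APPSw arrays, also without overlap. The Clu and Glul ratios overlapped. Ratios of 3′ to 5′ control probe sets, a sign of RNA integrity, were 1.17 to 1.34 on the control arrays against 1.25 and 1.27 on the APPSw arrays for beta-actin. For GAPDH they were 0.858 to 0.908 on the control arrays against 0.925 and 0.831 on the APPSw arrays. Pyruvate carboxylase had higher ratios, of 4.2 and 3.3 on the control arrays against 3.0 and 3.6 on APPSw arrays 1 and 2. For each of these genes the ranges overlapped, and the part of these ratios in the probe set gaps was not tested.

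**Figure D3:**
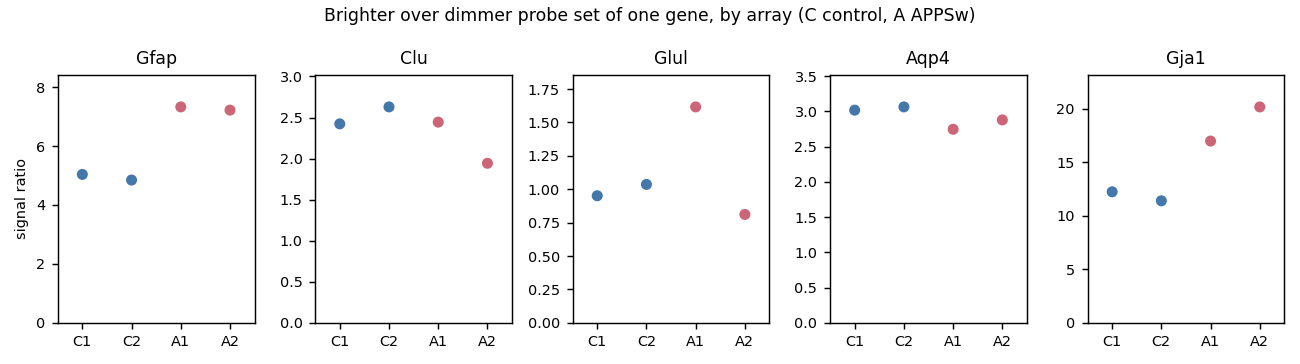
Signal of the brighter over the dimmer probe set of the same gene (linear axis from 0) on control arrays (blue, C1 and C2) and APPSw arrays (red, A1 and A2), for the 5 genes with 2 tested probe sets. For Gfap the ratio is 4.85 to 5.04 on the control arrays against 7.22 to 7.33 on the APPSw arrays, and for Gja1 11.4 to 12.2 and 17.0 to 20.2.

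The members did not stand together on either APPSw array. Relative to the control mean, the median of the 9 genes by their brightest probe sets was -0.02 on APPSw array 1 and -0.22 on APPSw array 2. APPSw array 2 had the lowest signal for 5 of the 14 tested probe sets, those of Gfap (both), Apoe, Clu (the brighter) and S100b. It also had the highest signal for 3, one each of Clu, Glul and Gja1. The summed signal of the 9 genes was 196600 and 198373 on the control arrays against 196464 and 177437 on the APPSw arrays, a sum that the bright Apoe probe set dominates. Without APPSw array 2 the median difference of the 9 genes was -0.019, against -0.14 with all arrays.

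A list of 50 other genes that astrocytes express had 33 with a tested probe set. Of these, 10 were above 0 and 23 below, with a median of -0.12, beside 51.5% above 0 and a median of 0.0088 over 5670 genes. By limma 0 of the 33 were called in either direction. Both APPSw arrays lay below both controls for 12 genes and above for 2, beside 19.6% and 21.3% of all genes. The list's median relative to the control mean was -0.22 on APPSw array 1 and -0.0026 on APPSw array 2, the reverse of the order seen for the 9 members. Without APPSw array 1 the median difference was -0.0026.

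Named by a fixed rule, the astrocyte genes of smallest p in this list included Gabrg1, a GABA-A receptor subunit. It had signals of 691 and 814 on the control arrays against 372 and 551 on the APPSw arrays, a log2 difference of -0.73 (SE 0.25, limma adjusted p = 0.605). Bcan, which encodes the matrix proteoglycan brevican, had 9602 and 10753 on the control arrays against 7790 and 6610 on the APPSw arrays, a difference of -0.50 (SE 0.19, limma adjusted p = 0.609). On the other side, Id3, an inhibitor of helix-loop-helix transcription factors, had 2416 and 2698 on the control arrays against 3602 and 3180 on the APPSw arrays. Its difference was 0.41 (SE 0.18, limma adjusted p = 0.612). Gstm1, a glutathione transferase, differed by 0.036 (SE 0.17), and by 0.30 on its other tested probe set. Gabrg1 and Bcan were lower, and Id3 higher, in both APPSw arrays than in both controls, and none of the 4 passed the test.

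Genes reported as raised in reactive astrocytes gave no single direction. Of 40 listed, 27 were on the array under 1 symbol and 14 were tested, with 7 above 0, 7 below, a median of -0.03 and 0 called by limma. Timp1, an inhibitor of metalloproteinases, had signals of 2053 and 2407 on the control arrays against 4303 and 3297 on the APPSw arrays, a log2 difference of 0.76 (SE 0.21, limma adjusted p = 0.599). Psmb8, an immunoproteasome subunit, differed by 0.93 (SE 0.31, limma adjusted p = 0.600), with signals of 700.5 and 792 on the control arrays against 1052 and 1923 on the APPSw arrays. Both genes are also expressed outside astrocytes. Il6st, the signalling receptor subunit gp130, differed by -0.25 (SE 0.18, limma adjusted p = 0.708), and by 0.025 on its other tested probe set. Both APPSw arrays were above both controls for 4 of the 14 and below for 1, beside 21.3% and 19.6% of 5670 genes. The list's median was -0.20 without control 1, 0.12 without control 2 and 0.05 without APPSw array 2, so it had no stable sign.

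The remaining lists hold partners of single members. In glutamate uptake and the glutamine cycle, the neuronal transporter gene Slc1a1 differed by -0.22 (SE 0.19) and the glutamine transporter gene Slc38a2 by -0.29 (SE 0.18). Got2, mitochondrial aspartate aminotransferase, differed by 0.026 (SE 0.17). The list's median was -0.15, and relative to the control mean it was -0.37 on APPSw array 1 and -0.0046 on APPSw array 2. Without APPSw array 1 the list's median was thus -0.0046. Slc1a2 itself stood at -0.45 and -0.38 on APPSw arrays 1 and 2.

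Among 10 tested genes of gap junctions, water and ion balance, 5 were above 0 and 5 below, with a median of 0.05. Atp1b2, the glial sodium pump subunit, had signals of 4194 and 5833 on the control arrays against 3991 and 2387 on the APPSw arrays, a difference of -0.68 (SE 0.31, limma adjusted p = 0.612). Tjp1, the junction scaffold ZO-1 that binds connexin 43, had 5473 and 6817 on the control arrays against 4417 and 4964 on the APPSw arrays, a difference of -0.38 (SE 0.20, limma adjusted p = 0.620). Both genes were lower in both APPSw arrays than in both controls, as was the dimmer Gja1 probe set but not the brighter one. They were the only 2 of the 10 below both controls, and 0 were above, beside 19.6% and 21.3% of 5670 genes. Of the 10, Atp1b2, Gjb6 and Slc4a4 also stand in the astrocyte list. By limma 0 of the 10 were called. The list's median had no stable sign, and was -0.12 without control 1, -0.02 without control 2 and -0.07 without APPSw array 1.

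Of 15 tested genes of lipoprotein carriage, 8 were above 0 and 7 below, with a median of 0.027 and 0 called by limma. Without APPSw array 1 the median was -0.14. Both APPSw arrays were above both controls for 5 of the 15 and below for 1, beside 21.3% and 19.6% of 5670 genes. Npc2, a lysosomal cholesterol carrier, differed by 0.41 (SE 0.21), and Abca1, which loads lipid onto apolipoproteins, by 0.28 (SE 0.18), but by -0.63 on its other tested probe set. Sorl1, a sorting receptor that binds APP, had signals of 2144 and 1939 on the control arrays against 1180 and 1719 on the APPSw arrays, a difference of -0.52 (SE 0.23, limma adjusted p = 0.612). Among 11 tested intermediate filament genes, 6 were above 0 and 5 below, with a median of 0.022 and 0 called by limma. The neuronal filament gene Nefm differed by -0.38 (SE 0.22) and Ina, alpha-internexin, by 0.20 (SE 0.17), with -0.14 on its other tested probe set. The filament list's median was -0.15 without APPSw array 1, -0.07 without control 1 and -0.0054 without control 2.

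Markers of other cell types were set beside the members, since several members are shared with those cells. All 8 tested choroid plexus markers were above 0, with a median of 1.12. Their median relative to the control mean was 2.04 on APPSw array 1 and 0.15 on APPSw array 2. Ttr, the transthyretin gene, had 8908 and 1896 on the control arrays against 83384 and 3236 on APPSw arrays 1 and 2. Of the 14 tested member probe sets, 5 were highest on that array, both of Aqp4, Vim, the brighter of Gfap and 1 of Glul. Without it the 2 Aqp4 differences were 0.29 and 0.37, Vim was 0.34 and that Glul probe set was 0.24. The choroid plexus water channel gene, Aqp1, lay under the filter.

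Oligodendrocyte markers had a median of -0.08 on APPSw array 1 and -0.36 on APPSw array 2 relative to the control mean, and 9 of 9 tested were below 0. Their summed signal was 104714 and 111444 on the control arrays against 103448 and 83137 on the APPSw arrays. Mbp, myelin basic protein, had 45424 and 47894 on the control arrays against 43884 and 36276 on the APPSw arrays. APPSw array 2 was thus the lowest for these markers by median and summed signal. It was also the lowest for both Gfap probe sets, the tested Apoe probe set and S100b. Among the markers, Mal was instead lowest on APPSw array 1, at 6227 against 6424 on APPSw array 2. Of 9 tested meningeal and fibroblast markers, 8 were above 0, with medians of 0.45 and 0.21 on APPSw arrays 1 and 2. Microglial markers had medians of 0.025 and 0.21 on these arrays. C1qa, a complement gene of microglia, differed by 0.06 and Cldn5, of endothelial tight junctions, by -0.0011, but their lists were spread. Of 10 tested microglial markers, both APPSw arrays were above both controls for 4 and below for 3. For 12 tested endothelial and mural markers the counts were 2 and 2, beside 21.3% above and 19.6% below over 5670 genes. Differences ranged from -0.62 to 0.47 in the microglial list and from -0.72 to 0.35 in the endothelial and mural list. Of the microglial genes below both controls, C1qc differed by -0.62, with no other tested probe set. Csf1r differed by -0.48 but by 0.64 on its other tested probe set, and Laptm5 by -0.35 but by 0.66. Ependymal markers, 3 of them tested with 1 above 0, had medians of 0.27 and -0.30 on APPSw arrays 1 and 2. Endothelial and mural markers had 0.0044 and -0.0052. Of 17 tested neuronal markers, 14 were below 0, with a median of -0.16 and a range from -0.56 to 0.56. Both APPSw arrays were below both controls for 7 of the 17 and above for 0, beside 19.6% and 21.3% of 5670 genes. Relative to the control mean, their medians were -0.22 and -0.24 on APPSw arrays 1 and 2. The neuronal marker Snap25, with signals of 79861 to 83271 on the 4 arrays, differed by only -0.019 and does not stand for its list. All 9 measured astrocyte genes had a probe set above the brightness filter. The part of these other cells in the member values was not tested.

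**Figure D4:**
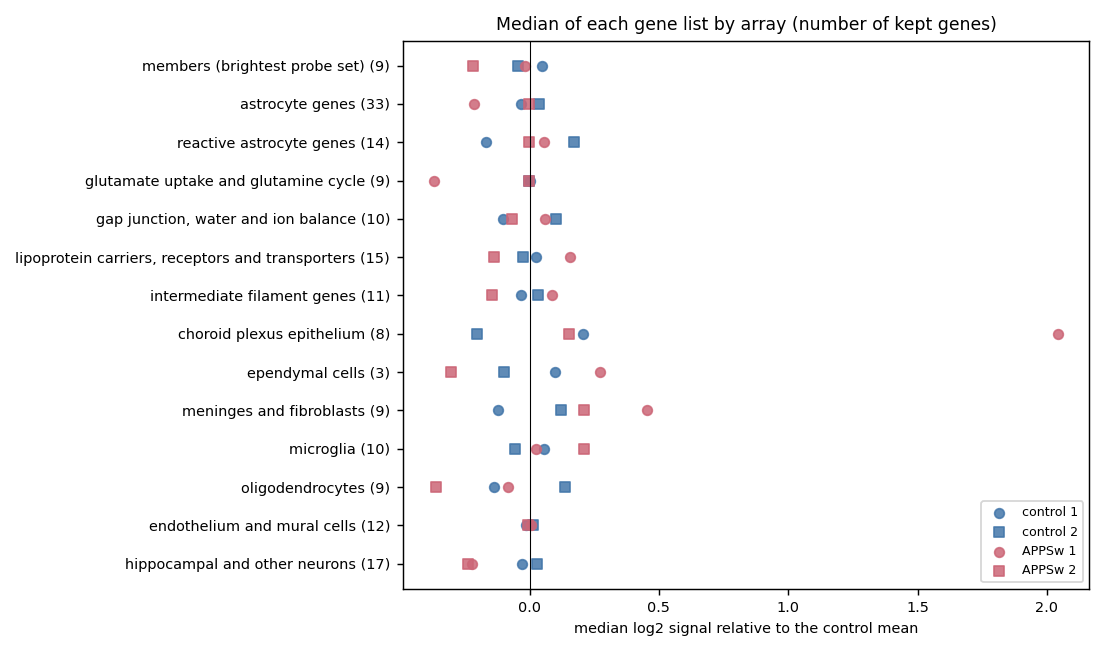
Median log2 signal of each gene list relative to the control mean (horizontal axis) on each array, with controls in blue, APPSw in red, circles for replicate 1 and squares for replicate 2, and the number of tested genes in brackets. Choroid plexus markers stand at 2.04 on APPSw array 1 alone, while the members lie at -0.02 and -0.22 on APPSw arrays 1 and 2.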

How the data were processed

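The deposited intensities are MAS 5.0 signals on a linear scale, which the authors set to a target of 2500 on each array, per the labels. Array medians were 926 to 1033. For background settings and scanner, nothing is given in the sources used here. Of 12488 probe sets, 66 manufacturer's controls were left out. A further filter dropped those with a mean log2 signal under the 40th percentile (a signal of 565), leaving 7453. Symbols are those of the platform annotation.

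The groups were compared on log2 signals with limma 3.58.1 (R 4.3.3), two-sided, and p-values were Benjamini-Hochberg adjusted over the 7453, at a threshold of 0.05. There were 2 residual and 3.70 prior degrees of freedom, and the code was tested on simulated data. SE and 95% intervals are limma's. Gene lists were described by counts and medians over each gene's brightest tested probe set. The text names all members and, from each pathway list, up to 2 genes per direction of smallest p whose groups did not overlap. Ttr, Mbp, C1qa and Cldn5 were named as single markers of their cell types, and Aqp1 and Snap25 were named after their values were seen. The members and lists were chosen with earlier results of these data known. Alternatives covered the normalization (quantile), the filter (none, or the 60th percentile), a floor and a pseudocount of 250, a replicate block, an intensity trend, averaging a gene's probe sets, and leaving out each array.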

Additional observations from a re-analysis of the deposited data

How the results depend on the processing

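By limma 0 probe sets were called higher and 0 lower under each of the 11 alternative settings of the fit, and the lowest adjusted p of a member was 0.350. Of the 14 tested member probe sets, 11 kept their sign under every setting that tested them. Vim was not tested with the filter at the 60th percentile. With an array left out, the brighter Gfap probe set ranged from -0.67 to 0.19, the second Clu probe set from -0.0078 to 0.15, and the brighter Gja1 probe set from -0.18 to 0.21. Among the lists, medians near 0 changed sign with other settings too: with probe sets of a gene averaged, the gap junction, lipoprotein and filament lists stood at -0.04, -0.02 and -0.02, the filament list was -0.015 after quantile normalization, and the reactive list was 0.05 with no filter. The mean of both Gja1 probe sets was -0.31, where the brighter alone gave 0.016. Between arrays that share a replicate number in the labels, the correlation of deviations from the group means was -0.02. In groups of 2 arrays the deviations mirror each other, so this value cannot decide whether the arrays were paired. With the replicate number as a block, 559 probe sets had an unadjusted p under 0.05, 0 were called, and the dimmer Gfap difference stayed at -0.80. Where 1 array is left out, its group's spread is taken from the other group. Probe sets at low signal, such as the dim one of Apoe, give no usable estimate. Present and absent calls and probe-level data were not used here.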
